A study of Mus musculus with 4 samples.

Results

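The proximal tubule S2 cells of the mouse kidney were 3796 cell barcodes chosen by their own UMI counts (unique molecules counted per gene) out of 52478 barcodes in 4 single-cell libraries. A barcode was taken if it had 300 or more genes, at most 50% mitochondrial UMIs, 5 or more UMIs of Slc34a1, 2 or more of Slc22a6, 0 of Slc5a2, at most 1 of Slc7a13, and at most 1 each of Slc12a1, Slc12a3 and Aqp2. The 0 h, 1 h, 4 h and 12 h libraries gave 794, 892, 1064 and 1046 such cells. All mice were C57BL/6J, male and female, 10 weeks old. They received a single intraperitoneal dose of 10 µg recombinant human FGF23 per mouse and were killed 1, 4 or 12 h later. The control is labelled as baseline, 0 h and 0 µg, while the name of its deposited matrix speaks of saline at 1 h, so whether those mice were injected is not settled. Male and female kidneys were digested together in pairs, the number of pairs per library not being given in the sources used here, red cells were lysed and dead cells removed with Annexin V. There was 1 library per time, so animals, digestion and hour of collection cannot be told apart from the time after FGF23, and no time difference has a replicate check.

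The proximal tubule reabsorbs most of the filtered phosphate, glucose and amino acids, and its successive stretches are called S1, S2 and S3. S2 is known for secreting organic anions, drugs among them, through basolateral carriers such as Slc22a6 (OAT1) and Slc22a8 (OAT3). FGF23 is a bone hormone that signals through FGF receptors with the co-receptor Klotho (Kl), lowers phosphate uptake and raises the vitamin D catabolic enzyme Cyp24a1. In rodents the proximal tubule also differs between the sexes, most of all towards S3.

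The libraries held 12245 to 13813 barcodes, of which 9477 to 11120 passed the gene and mitochondrial limits. The share of S2 cells among these was 7.84% in the 0 h library (exact Clopper-Pearson 95% interval 7.33 to 8.38), then 9.41%, 9.57% and, in the 12 h library, 10.1% (9.53 to 10.7). Their median depth was 10023, 11673.5, 10691.5 and 10012.5 UMIs, and their summed UMIs were 8523822, 11150757, 12365147 and 11645695. The median mitochondrial share was 22.3%, 22.2%, 16.1% and 20.5%, lowest in the 4 h library. Pairs of libraries shared 36 to 57 barcodes, and at most 1 among S2 cells. Doublet calls took 3.03% to 5.35% of the S2 cells, which were kept.

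Levels are given as CPM: the UMIs of a gene summed over the S2 cells of a library, per 1000000 UMIs of those cells. Log2 ratios to the 0 h library carry exact 95% counting intervals, which say nothing of differences between animals. For orientation the same sums were made for an S1 gate (5 or more UMIs of Slc34a1, 2 or more of Slc5a2, at most 1 of Slc7a13) and an S3 gate (0 of Slc5a2, 3 or more of Slc7a13). Both gates had the same limits on quality and on the distal genes. The rule separates S2 cells from these gates, so the contrast is described and not tested.

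The marker genes outside the rule followed the S2 label. Slc22a8 (chromosome 19, 8591254 to 8611835, plus strand, beside Slc22a6) stood at 765 CPM in S2 cells of the 0 h library, against 374 in the S1 gate and 117 in the S3 gate. Hpd, the enzyme that oxidises 4-hydroxyphenylpyruvate in tyrosine breakdown (ENSMUSG00000029445, chromosome 5, 123171807 to 123182727, minus strand), had 416, 26.7 and 47.1 CPM in the same order. Bhmt, which remethylates homocysteine with betaine (ENSMUSG00000074768, chromosome 13, 93616675 to 93637961, minus strand), had 112, 13.7 and 2.40 CPM. Each of these markers was highest in the S2 cells of that library, both sexes together. The S1 lactate carrier Slc5a12 was at 25.2 CPM in S2 cells and 459 in the S1 gate. Single cells differed: 73.7% of S2 cells had a UMI of Hpd at 0 h and 44.8% one of Bhmt. In an endothelial gate, which should lack both, 1.57% and 0.45% of barcodes had one, at a median of 2493.5 UMIs against 10023. After thinning each barcode to 3000 UMIs the Hpd shares were 54.9% and 1.92%.

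Across the transcriptome, 252 of 10103 genes with 100 or more UMIs over the S2 cells were at least 2-fold above the S1 gate in all 4 libraries (2.49%), and 195 were at least 2-fold below it (1.93%). Against the S3 gate 331 were higher (3.28%) and 134 lower (1.33%). The genes with the largest median log2 difference over the libraries, in the same direction in all 4, included the antiprotease gene Serpina1a (5.21 above S1), the glutamine carrier Slc38a3 (4.28) and the organic anion carrier Slc22a13 (4.15). None of these was above the S3 gate in both sexes, as given below. On the S1 side stood the phosphate carrier Slc34a3 (-5.59) and the fatty acid binding protein Fabp3 (-4.88). Above S3 stood the glutathione transferase Gsta4 (6.30) and the organic anion carrier Slc22a29 (6.24), differences that were smaller within a sex, as given next.

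Part of that contrast was also a contrast between the sexes. Sex was called per barcode from Xist against 4 Y-linked genes (Ddx3y, Uty, Kdm5d, Eif2s3y), at 1 UMI or more of 1 kind only. Of the S2 cells, 257, 302, 327 and 448 in the 4 libraries had neither kind. Another 26, 17, 17 and 16 had both, and all of these stayed uncalled. Requiring 2 such UMIs at 0 h kept 447 of 455 female calls but 31 of 56 male calls. Whether the uncalled cells have the same mix of sexes was not tested. Among sex-called S2 cells 89.0% were female at 0 h (455 female, 56 male; interval 86.0 to 91.6), followed by 90.4%, 85.6% and, in the last library, 74.6% (70.8 to 78.1). All barcodes passing the quality limits were 37.1% to 43.5% female. The female share of the S1 gate was 44.2% to 49.2%, and that of the S3 gate 0.82% to 1.95%. The jump came at 1 step of the rule. At 0 h, requiring Slc34a1, Slc22a6 and no Slc5a2 took the female share from 37.1% to 22.8%, and allowing at most 1 UMI of Slc7a13, an amino acid carrier of S3 that is far higher in males, took it to 87.9%.

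**Figure D1:**
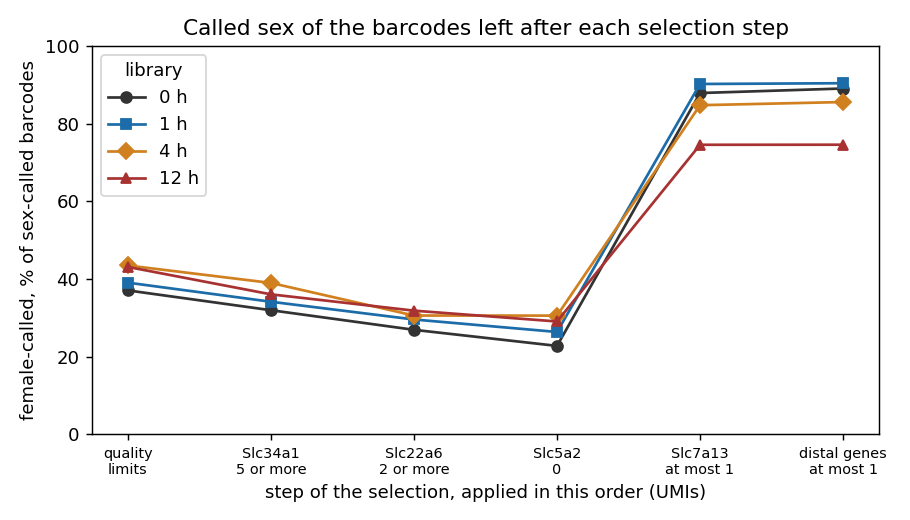
Share of female-called barcodes (y axis, percent of sex-called barcodes) left after each step of the rule (x axis), 1 line per library. In every library the share is at most 43.5% until the Slc7a13 step and ends between 74.6% and 90.4%.

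Compared within 1 sex, part of the S2 profile remained and part did not. Over the 4 libraries together, Hpd stood at 334 CPM in female-called S2 cells and 37.2 in female-called S1-gated cells, a log2 difference of 3.17. The male-called cells had 29.3 and 3.07 CPM, a difference of 3.25. Against S3 the female difference in Hpd was 1.48 and the male one -0.25, so male-called S2 cells had no more Hpd than male S3-gated cells. Apoe, an apolipoprotein gene, was 748 CPM in female S2 cells and 152 in the 79 female S3-gated cells, and 45.8 and 9.51 in males. Gsta4 exceeded S3 by 2.16 in females and 3.28 in males, and Slc22a29 by 2.78 and 2.79, while against S1 the male-called cells had -0.95 and -1.79. Slc22a8 exceeded S1 by 0.81 in females and 0.09 in males. Slc22a13 was 43.0 CPM in female S2 and 85.3 in female S3-gated cells, and 1.89 and 20.4 in males. Slc38a3 was 11.9 and 12.1 CPM in females and 2.36 and 6.35 in males. Serpina1a was 96.5 and 65.8 CPM in females, but 4.25 and 32.5 in males. The male-called S2 cells carried 40.1 CPM of Slc7a13 and 76.4 of the S3 organic anion carrier Slco1a1, against 4.26 and 3.04 in the female-called ones.

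Cells just inside and just outside the thresholds were compared, both sexes together. S2 cells with exactly 1 UMI of Slc7a13 had 177, 248.8, 137 and 37.8 CPM of Hpd over the 4 libraries, and barcodes left out with 2 UMIs had 26.5, 67.4, 26.9 and 26.6. The Slc7a13 limit also removed most male-called cells, and Hpd was lower in male-called than in female-called S2 cells. Segment and sex therefore cannot be told apart at this threshold. At the Slc22a6 threshold the step was small in all but the 12 h library, where the cells left out had more: Hpd was 358, 400, 256 and 72.2 CPM inside with 2 UMIs and 347, 415, 242 and 137 outside with 1. Barcodes left out for a single Slc5a2 UMI had 71.3 to 138 CPM of Slc5a12, above the 16.1 to 25.6 of the S2 cells.

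Turning to the time course, Hpd and a few other enzymes of amino acid metabolism, Bhmt and Gatm among them, were lower in the 12 h library. Hpd was 416, 383, 274 and 112 CPM at 0, 1, 4 and 12 h. Its log2 ratios to the 0 h library were -0.12, -0.61 and -1.90 (last interval -1.99 to -1.80). Because Hpd is higher in females and the female share was lowest at 12 h, the female-called cells alone are the closer comparison: 463, 415, 310 and 144 CPM, a ratio of -1.69. Male-called cells had 40.0, 34.4, 36.6 and 19.5 CPM (-1.04), and the S1 gate was lower too (-1.54). The share of S2 cells with a UMI of Hpd was 46.4% at 12 h, or 21.7% after thinning.

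Bhmt followed the same order, at 112, 114, 75.3 and 39.2 CPM (-1.51 at 12 h; females -1.32, males -1.15). Gatm, the first enzyme of creatine synthesis, was 1207, 876, 643 and 433 CPM, each library below the one before, with a ratio of -1.48 at 12 h (females -1.50, males -0.87). Not every enzyme of these pathways was lower. Fah and Hgd, which act after Hpd in tyrosine breakdown, were 290 and 334 CPM at 0 h and 292 and 358 at 12 h. Gldc of the glycine cleavage system was highest at 4 h, with 65.7, 126, 198 and 96.1 CPM (1.59 at 4 h).

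Acy3, an aminoacylase that removes acetyl groups from amino acids conjugated for excretion (ENSMUSG00000024866, chromosome 19, 3986570 to 3990007, plus strand), went the other way. It had 715, 818, 1349 and 2619 CPM, with ratios of 0.20, 0.92 and 1.87 (1.83 to 1.91). Male-called cells had more of it at every time, 2657, 2672, 3808 and 5792 CPM, yet the female-called cells alone gave 433, 621, 886 and 1466 CPM and a ratio of 1.76. In 25 genes of amino acid and one-carbon catabolism, 0 passed 2-fold in either direction at 1 h, 1 was higher at 4 h (Gldc), and at 12 h 1 was higher (Acy3) and 3 lower (Hpd, Bhmt, Gatm). Over all 10103 genes, 143 were 2-fold or more higher at 12 h (1.42%) and 97 lower (0.96%). At 1 h, 76 were higher (0.752%) and 87 lower (0.861%), and at 4 h 185 (1.83%) and 153 (1.51%).

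**Figure D2:**
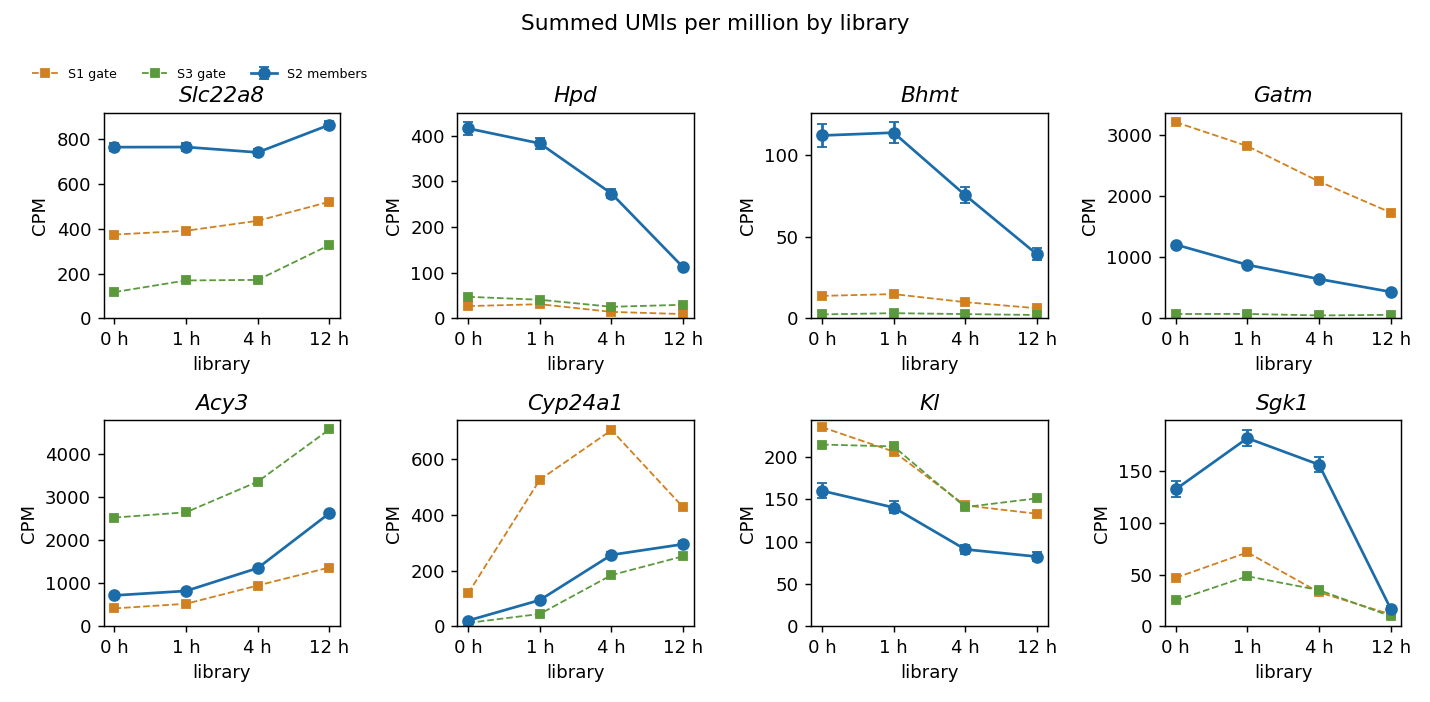
CPM (y axis) of 8 genes by library (x axis) in the S2 cells (solid line; bars are exact 95% counting intervals) and in the S1 and S3 gates (dashed lines). Hpd goes from 416 to 112 CPM and Acy3 from 715 to 2619 CPM in S2 cells, while Slc22a8 stays between 741 and 864.

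Since Hpd and Acy3 moved furthest apart among these enzymes, the sequence before each start is shown, taken from RefSeq (GRCm38.p6). Each run is 240 bases, from 250 to 11 bases before the start, read 5′ to 3′ on the gene's strand. Hpd lies at chr5:123182734-123182973 on the minus strand and Acy3 at chr19:3986320-3986559 on the plus strand. Capitals mark matches on either strand to a few motifs, chosen after the sequences had been seen. The AP-1 motif was written TGANTCA. The E-box was searched as CACGTG. For HNF1 the half-site GTTAAT was used, and for HNF4 the partial site CAAAGT. The TATA box was searched as TATAAA.
Hpd: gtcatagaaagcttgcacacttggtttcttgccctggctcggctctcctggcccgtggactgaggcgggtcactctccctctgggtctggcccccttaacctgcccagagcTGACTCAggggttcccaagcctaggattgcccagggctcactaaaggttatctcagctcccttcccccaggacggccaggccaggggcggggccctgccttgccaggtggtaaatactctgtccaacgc
Acy3: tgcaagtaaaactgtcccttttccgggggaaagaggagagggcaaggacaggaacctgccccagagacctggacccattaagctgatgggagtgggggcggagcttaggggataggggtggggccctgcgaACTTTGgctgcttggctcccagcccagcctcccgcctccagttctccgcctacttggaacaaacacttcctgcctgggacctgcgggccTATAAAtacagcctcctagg

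The Hpd window held 1 match, the AP-1 motif at -139 from the start. The Acy3 window held the HNF4 partial site, on the opposite strand, at -119 and the TATA box at -30. Among 27025 promoters cut to the same window, 6.69% held the AP-1 motif, 5.71% the E-box, 6.37% the HNF1 half-site, 12.1% the HNF4 partial site and 12.7% the TATA box. A match describes the letters in the window and no more.

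Over both sexes together, Slc22a8 was close to level, at 765, 765, 741 and 864 CPM (0.18 at 12 h, and 0.28 in females). Male-called cells alone had 230, 327, 337 and 516 CPM of it, a ratio of 1.16 at 12 h. Slc22a6 was 602, 598, 700 and 730 CPM, but the rule required it, so its level depends on the selection. Of 24 organic ion transport genes 1, 2 and 3 were 2-fold higher at 1, 4 and 12 h and 0 lower. Those included Slc22a7 (OAT2), at 8.45, 14.0, 28.3 and 26.3 CPM, and Slc22a13, at 18.3, 24.4, 42.2 and 39.2. The UMIs of Slc22a7 lay in 30 to 71 cells per library, with 59.7% to 75.6% of them in the top 10. Its ratio in male-called cells was 1.64 at 4 h and -0.15 at 12 h. Male-called cells held 4, 1, 1 and 2 UMIs of Slc22a13, too few for a direction. Slc22a7 stood at 78.0 to 209 CPM in the S3 gate and 1.18 to 3.43 in the S1 gate.

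In the list of 12 S3 genes, 4 were 2-fold higher at 4 h (Slc22a13, Slc7a12, Mep1b, Serpina1f) and 4 at 12 h (Slc22a13, Slc22a19, Slc7a12, Mep1b), and the lactate and ketone carrier Slc5a8 was lower at 12 h (177 to 85.6 CPM, -1.05). Slc7a12, an amino acid carrier, was 8.68, 15.2, 19.2 and 20.4 CPM, but 24 cells held all of its UMIs at 0 h and 22 at 12 h, with 27.0% and 16.0% in a single cell. Without doublet calls its 12 h ratio was 2.70 in place of 1.24. Of the UMIs of Mep1b and Serpina1f at 4 h, 58.3% and 57.0% lay in the top 10 cells. Cells with a UMI of at least 1 of 5 S3-type genes were 18.1%, 18.2%, 19.8% and 19.6% of the S2 cells.

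FGF23 target genes were followed next. Cyp24a1, which inactivates vitamin D (ENSMUSG00000038567, chromosome 2, 170482708 to 170497145, minus strand), was 20.4, 94.0, 256 and 295 CPM. It was higher in each later library, with log2 ratios of 2.20 (1.97 to 2.44), 3.65 and 3.85 (3.63 to 4.08). Female-called cells gave 2.46 at 1 h and 4.00 at 12 h. Male-called cells gave 0.84 at 1 h, short of 2-fold, and 3.11 at 12 h. The top 10 cells held 35.1% of the Cyp24a1 UMIs at 0 h. The share of S2 cells with a UMI went from 10.3% at 0 h to 27.1%, 56.3% and 64.6%, and from 5.24% to 43.5% after thinning, while 1.12% to 3.42% of endothelial-gated barcodes had one. The S1 gate had more Cyp24a1 throughout and was highest at 4 h, and its 12 h ratio was 1.85. The S3 gate had a ratio of 4.39.

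The vitamin D receptor gene Vdr was 82.9, 92.0, 137 and 139 CPM. Kl (chromosome 5, 150952607 to 150993817, plus strand) was 160, 140, 90.8 and 82.3 CPM, a ratio of -0.96 at 12 h (-1.08 to -0.84), just short of 2-fold. Female-called cells had -0.94 and male-called cells -0.59. The receptors Fgfr1, Fgfr3 and Fgfr4 stood between 8.97 and 18.4 CPM in every library. In the 9 phosphate transport genes with enough UMIs none passed 2-fold. Slc34a1, the main phosphate carrier (chromosome 13, 55398187 to 55415592, plus strand) and a gene of the rule, was 3621, 3589, 3248 and 2784 CPM. The phosphate carrier Slc20a1 was 18.7, 25.02, 10.6 and 9.45 CPM (-0.98 at 12 h), but 0.67 in male-called cells. The phosphate exporter Xpr1 was 56.3, 51.1, 39.1 and 35.2.

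Genes that answer ERK signalling were higher at 1 h. Egr1, an immediate early transcription factor, was 25.1, 222, 39.8 and 13.5 CPM, highest at 1 h by a ratio of 3.15 (2.94 to 3.35), with 3.02 in females and 3.21 in males. The EGF receptor ligand gene Hbegf was 4.58, 41.3, 10.3 and 6.61 CPM (3.18), and the transcription factor genes Hes1 and Id1 were at 34.98 and 196 CPM at 1 h from 4.58 and 33.9. The share of S2 cells with a UMI of Egr1 was 7.81%, 75%, 24.2% and 7.27%. Endothelial-gated barcodes, which were shallower, had one in 20.9% and 20.7% at 0 and 1 h. After thinning, the shares at 0 and 1 h were 4.19% and 39.6% in S2 cells, and 26.9% and 24.6% in the endothelial gate. The S1 and S3 gates were higher in Egr1 at 1 h too, with ratios of 3.84 and 2.93. Their shares with a UMI went from 5.29% to 71.9% in the S1 gate and from 17.5% to 84.7% in the S3 gate. The Egr1 difference at 1 h was thus not particular to S2 cells. Of 15 immediate early genes 7 were 2-fold higher at 1 h (Egr1, Ier2, Btg2, Junb, Klf10, Zfp36, Klf6) and 0 lower. At 4 h it was 1 (Ier5), and at 12 h 2 were lower, Fos at -1.54 and Btg2 at -1.12 (but 1.65 in males).

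The feedback inhibitors were higher in both the 1 h and the 4 h library. Dusp6, a phosphatase that shuts off ERK, was 23.6, 86.5, 73.9 and 29.6 CPM, with ratios of 1.88, 1.65 and 0.33. The Sprouty gene Spry1 was 2.35, 8.07, 13.1 and 5.67. Errfi1, an inhibitor of EGF receptor kinase activity, was 444, 978, 942 and 487 CPM (1.14, 1.08 and 0.13). The male-called cells showed less of a difference in Errfi1, 0.33 at 1 h and 0.35 at 4 h. Of 14 ERK feedback genes, 7 were 2-fold higher at 1 h (Dusp4, Dusp6, Spry1, Spry2, Spry4, Errfi1, Nab2). The count at 4 h was also 7, and at 12 h Spry1 was higher and Myc lower. The list's median ratio was 0.86, 0.91 and 0.44, against 0.00, 0.05 and 0.01 over all genes. Dusp4 had -0.90 in male-called cells at 1 h, from 5 and 3 UMIs.

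**Figure D3:**
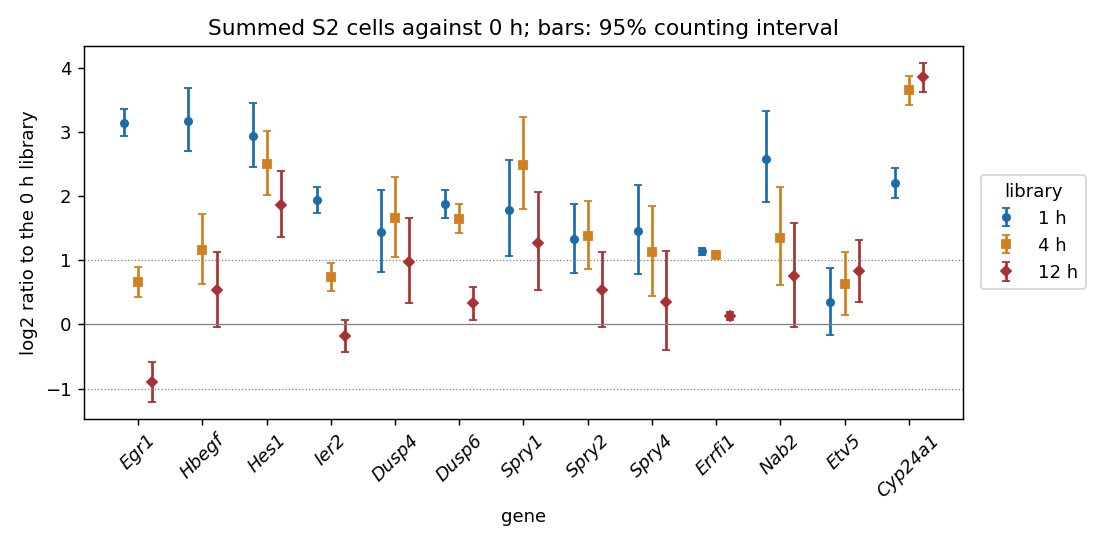
Log2 ratio to the 0 h library (y axis; bars are exact 95% counting intervals) of early and ERK feedback genes and Cyp24a1 (x axis) in S2 cells at 1, 4 and 12 h; dotted lines mark 2-fold. Egr1 is at 3.15 at 1 h and below 0 at 12 h, Dusp6 and Errfi1 stay above 1 at 4 h, and Cyp24a1 reaches 3.85 at 12 h.

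Metallothionein and glucocorticoid-responsive genes were spread over the time course. Mt1, which binds zinc (chromosome 8, 94179082 to 94180327, plus strand), was 14.4, 45.3, 138 and 90.5 CPM, with a ratio of 3.26 at 4 h. A UMI of it was found in 12.1%, 31.1%, 53.8% and 43.0% of S2 cells, and in 7.52% to 12.9% of endothelial-gated barcodes. The transcription factor gene Zbtb16 was 1.17, 0.90, 21.4 and 0.26 CPM. Its 265 UMIs at 4 h lay in 182 cells. Female-called cells held 254 of those UMIs and the male-called cells 0, while in the S1 gate the female- and male-called cells had 11.7 and 0.73 CPM. Fkbp5, a glucocorticoid receptor co-chaperone, was 14.3, 26.9, 53.5 and 18.7 CPM.

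Sgk1, a kinase that regulates sodium transport, was 133, 182, 156 and 17.0 CPM, lowest at 12 h by -2.96 (-3.19 to -2.74). The ratio was -2.84 in females and -2.86 in males, and the S1 and S3 gates were lower as well (-2.02 and -1.36). Pdk4, which restrains pyruvate dehydrogenase, was 30.4, 42.3, 37.4 and 8.07 CPM. Of 15 genes in this list, 3 were higher and 0 lower at 1 h. At 4 h it was 3 and 1, and at 12 h 1 (Mt1) and 6 (Sgk1, Pdk4, Zbtb16, Per1, Dusp1, Gadd45g). Of 11 FoxO-type genes Txnip and Foxo3 were lower at 12 h, at -1.71 and -1.17, although Foxo3 was 0.96 in males.

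Tubule injury genes were highest at 4 h. Tnfrsf12a, the receptor of TWEAK, was 9.62, 24.6, 73.3 and 15.5 CPM, Hmox1, which degrades haem, 14.1, 21.0, 77.4 and 16.1, and the lipid droplet gene Plin2 113, 132, 339 and 153. Of 10 genes with enough UMIs 2, 6 and 1 were 2-fold higher at 1, 4 and 12 h and 0 lower, and the median was 1.51 at 4 h (1.97 in female-called and 0.57 in male-called cells). The UMIs of Vim, 1 of the 6, lay in 10 cells at 4 h, with 48.7% in a single cell. The kidney injury markers Havcr1, Krt20, Lcn2, Vcam1 and Sox9 were all under 2 CPM in every library. Cdkn1a, a cell cycle inhibitor, was 5.98 and 23.0 CPM at 0 and 4 h. In male-called cells its ratio was -0.39 (10 and 13 UMIs), and that of Tnfrsf12a at 1 h was -0.30 (22 and 20 UMIs).

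Among the other fixed groups, heat shock genes were lower at 4 h in 3 of 12, among them the abundant Hspa8 (2423, 1951, 1201 and 1694 CPM, -1.01 at 4 h). Hspa1a and Hspa1b were lower by -1.41 and -1.60. In male-called cells, too few for a direction, Hspa1a had 0 UMIs at 0 h and 6 at 4 h, and Hspa1b 3 and 8. Of 25 fatty acid oxidation genes 20 were above 0 at 4 h, with a median of 0.26. The list holds Cyp4b1, a monooxygenase, at 386, 449, 635 and 874 CPM. In 34 translation initiation genes none passed 2-fold at any time. Few of all genes did either, at 4 h 1.83% higher and 1.51% lower. Of the 34, 28 were above 0 at 4 h, with a median of 0.21 against 0.05 over all genes. That median was 0.26 in female-called and -0.05 in male-called cells. Hnf4a, a transcription factor of the proximal tubule, was 230, 236, 168 and 202 CPM.

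Genes named by size alone, with both sexes past 1.5-fold the same way, added a few. At 4 h they included Ypel2 (9.39 to 75.9 CPM) and Ramp2, a calcitonin-type receptor partner (9.85 to 64.9). At 12 h they included the transcription inhibitor Id3 (27.9 to 136), Noct, which follows the circadian clock (20.4 to 2.49) and the kinase gene Plk3 (7.98 to 1.63). The set at 1 h held the antigen presentation genes H2-Aa (21.2 to 6.73 CPM) and Cd74 (88.9 to 33.9) on the lower side. Immune cell markers moved with these: the 14 genes summed to 300, 157, 86.0 and 207 CPM, with Gzma at 0 in every library. The 8 with enough UMIs had a median ratio of -1.64 at 1 h and -3.64 at 4 h. For the same genes the 1 h median was -4.01 in female-called cells and 3.97 in male-called cells, where few cells were sampled. UMIs of such markers lay in few cells. The top 10 held 93.2% of those of S100a8 at 0 h and 95.4% at 1 h. A single cell held 73.5% of those of Lyz2 at 0 h and 96.3% at 4 h. The part of such cells in the result was not tested. Sox17 was also named, at 0.35 and 2.60 CPM, with 55.2% of its 1 h UMIs in 1 cell.

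Markers of other cells were summed in the same way. The 12 thick limb, distal and collecting duct genes came to 38.8, 25.1, 35.3 and 54.1 CPM, and the 10 endothelial, stromal and podocyte genes to 36.5, 38.3, 22.4 and 49.1. Blood and pancreas genes came to 644, 570, 549 and 1125 CPM, with Cpa1 and Pnlip at 0. At 12 h, 77.5% of the 3609 UMIs of the globin gene Hbb-bs lay in a single cell.

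Clock-controlled genes separated the sexes within a library. In female-called S2 cells Dbp, an output gene of the circadian clock, was 56.0, 37.8, 3.05 and 14.0 CPM, and in male-called cells 22.4, 1.43, 9.37 and 89.2. At 12 h it was thus lower than at 0 h in females and higher in males. Arntl, the clock activator Bmal1, which peaks in opposite phase, was 1.81, 2.15, 19.9 and 6.32 CPM in females and 9.59, 14.3, 16.9 and 1.08 in males. The male-called values came from 56, 55, 104 and 148 cells, so from few UMIs. At 12 h the male ratio of Arntl was -3.15, with a wide counting interval of -6.49 to -0.67. For Dbp the same split was seen in the S1 gate. Females there had 47.3, 22.4, 3.103 and 9.82 CPM of it, and males 9.44, 4.55, 3.75 and 58.6. Over all S2 cells 3 of 12 clock genes were 2-fold higher at 4 h (Arntl, Npas2, Nfil3) and 4 lower (Dbp, Tef, Per3, Nr1d2). At 12 h 4 were lower (Tef, Per1, Per2, Per3), with Tef at 0.46 and Per3 at 1.55 in males. The hour at which each mouse was killed is not given in the sources used here, and its part in the time differences was not tested.

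**Figure D4:**
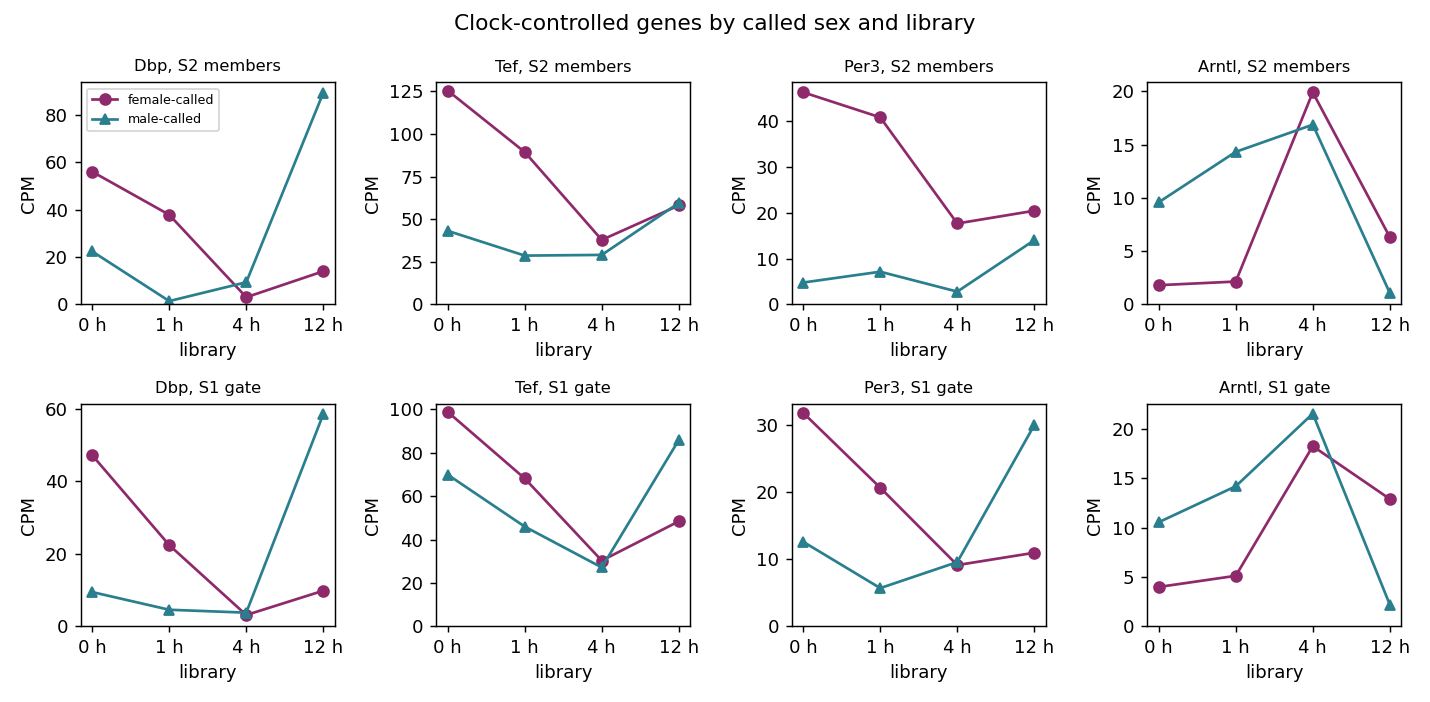
CPM (y axis, separate scale per panel) of 4 clock genes by library (x axis) in female-called and male-called cells of the S2 rule (top) and the S1 gate (bottom). In male-called S2 cells, 55 to 148 per library, Dbp is highest at 12 h (89.2 CPM) and Arntl lowest (1.08 CPM). In female-called ones Dbp is highest at 0 h (56.0 CPM).

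The difference between the sexes was the comparison with replication, since each of the 4 libraries held both. UMIs were summed per library and called sex, 2023 female-called and 363 male-called cells in all, and tested with edgeR's quasi-likelihood test with library as a block. At an adjusted p of 0.05 or less, 1838 of 9972 genes were higher in female-called cells (18.4%) and 1813 in male-called cells (18.2%), 36.6% in all. A share near these in a gene group is therefore no result about that group. The rule left few male cells, chosen for low Slc7a13, and the pairs come from different times after FGF23, so the test bears on the cells that passed the rule.

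All 3 S2 markers outside the rule differed between the sexes. Hpd was higher in female-called cells by 3.13 on the log2 scale (SE 0.13, edgeR adjusted p = 4.5e-09, higher in 4 of 4 libraries). Bhmt was higher by 3.68 (SE 0.18, edgeR adjusted p = 2.2e-08), and Slc22a8 by 1.29 (SE 0.12, edgeR adjusted p = 4.5e-06), each in 4 of 4 libraries. The prolactin receptor gene Prlr stood at 446, 431, 374 and 378 CPM in female-called cells and 7.99, 10.0, 11.3 and 15.1 in male-called ones, groups far apart, with a difference of 4.92 (SE 0.15, edgeR adjusted p = 2.6e-10). Prlr and Hpd were higher in female-called cells of the S1 gate as well, 89.1 against 7.57 CPM for Prlr over the 4 libraries.

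On the male side, Cyp4b1 was 202, 285, 353 and 385 CPM in female-called cells and 1447, 1788, 1979 and 2221 in male-called ones, a difference of -2.74 (SE 0.07, edgeR adjusted p = 9.8e-11). Acsm3, a medium-chain acyl-CoA synthetase, was 6.05 to 14.5 CPM in females and 150 to 375 in males (-4.85, SE 0.20, edgeR adjusted p = 5.3e-09). In the S1 gate Acsm3 was 3.73 and 14.3 CPM over the 4 libraries. In the S3 gate, which had few female-called cells, it was 311 and 544. Acy3 was higher in males too (-2.32, edgeR adjusted p = 2.4e-09). Neither Cyp24a1 nor Kl passed: Cyp24a1 had -0.05 (edgeR adjusted p = 0.81) and Kl -0.02 (edgeR adjusted p = 0.92).

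Several genes were seen in 1 sex only within the S2 cells. The glucuronosyltransferase Ugt1a2 had 452 UMIs in female-called cells and 0 in male-called ones, at least 23.7-fold higher against a floor of 3 counts over the male-called cells of all libraries. Uroc1 of histidine breakdown (134 UMIs, at least 7.01-fold) and the receptor kinase gene Erbb4 (98 UMIs) also had 0 in males. Frzb, a secreted Wnt antagonist, had 0 UMIs in the female-called cells and 24 in the male-called ones. The largest fitted differences also named Serpina1f and Slc7a12 on the female side, and the galactosyltransferase Ugt8a and the cytochromes Cyp2j13 and Cyp4a12a on the male side. Serpina1f, an S3 gene like Slc7a12, was found in 20 to 39 S2 cells per library, and Slc7a12 in 22 to 42. The top 10 cells held 57.0% to 87% of the Serpina1f UMIs and 70.2% to 87.6% of those of Slc7a12. Ugt8a was 1.11 against 59.7 CPM and Cyp2j13 2.07 against 121. In the S3 gate the sexes lay closer in these male-side genes, but its female-called side was small. It held 25, 12, 27 and 15 cells in the 4 libraries, against 1705, 1452, 1361 and 963 male-called ones. Whether some of those few were miscalled male cells was not tested. Female- and male-called cells there had 10.1 and 15.3 CPM of Frzb, 46.3 and 89.1 of Ugt8a, 119 and 190 of Cyp2j13, and 29.5 and 46.7 of Cyp4a12a. In the S1 gate Ugt8a was 0.94 and 48.8 CPM, and Cyp2j13 3.22 and 94.6.

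By group, amino acid transport had the highest share of female-higher genes among the lists tested: 13 of 15 genes were higher in female-called cells and 0 in male-called cells, with a median of 0.89 against 0.07 over all genes. Slc6a18, a neutral amino acid carrier, was higher by 1.91 and Slc7a8 by 1.74. Of 23 organic ion transport genes 13 were higher in females and 7 in males, Slc22a29 by 4.75 and Slc22a30 by -3.52. S3 genes were female-higher in 9 of 12 and male-higher in 2, and S1 genes in 6 of 10 and 0. The rule limited Slc7a13, itself an S3 gene, and that step removed far more male-called than female-called cells. A sex difference in S3 genes therefore cannot be told apart from the selection. The 34 translation initiation genes leaned to the male side, 4 against 18. Fatty acid oxidation split evenly, 9 against 8 of 25, with Cyp4a14 higher in females by 3.85 and Acads in males by -1.04.

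**Figure D5:**
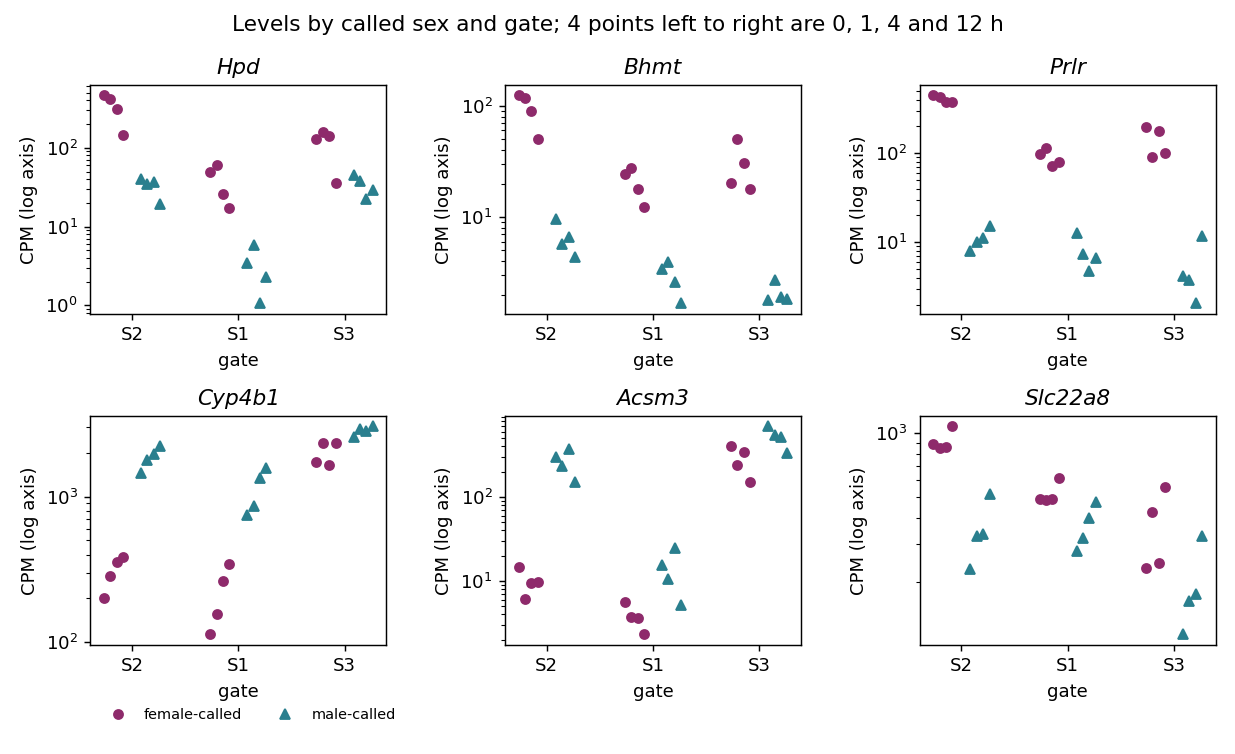
CPM (log y axis) of 6 genes in female-called (circles) and male-called (triangles) cells of the S2 rule and the S1 and S3 gates (x axis), 1 point per library. In S2 cells no female point overlaps a male point for Hpd, Bhmt, Prlr, Cyp4b1, Acsm3 or Slc22a8.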

How the data were processed

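Single-cell libraries of whole mouse kidney (10x Genomics 3′ chemistry) were deposited as raw UMI counts per gene and barcode, with no normalization by the authors. The submitters' processing notes name Cell Ranger 3.1.0, STAR, Seurat and mm10, and the annotation is not given in the sources used here. Gene positions come from GENCODE vM21 (GRCm38). The cells, gene lists and tests were chosen with earlier results of these data known. UMIs of 31053 genes were summed over the chosen cells and scaled to CPM. Counting intervals were exact, at 95%, and cover counting error only, and a group at 0 was set to a floor of 3 counts. Genes with 100 or more UMIs over the 4 libraries entered time comparisons, where 2-fold counted as changed and no p-value was given. Genes were named from fixed lists or by size: the 8 largest per direction and time that were at least 1.5-fold in both sexes, the 10 largest per direction for sex, and the 8 largest against each gate. The sexes were compared with edgeR 4.0.16 (R 4.3.3) with Benjamini-Hochberg adjustment, without Xist and the Y genes. Scripts were tested on simulated data. Doublets were scored with scanpy's Scrublet with an expected rate that grew with the number of barcodes. Each of the 4 pairs of sums came from 1 library, so the p-values measure spread between these libraries. A few genes are not reported here.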

Additional observations from a re-analysis of the deposited data

Results flagged for a closer look

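For some of the genes followed over time, the female-called and the male-called S2 cells lay on opposite sides of their own 0 h level. With 1 sum per sex and library the difference was not tested, and the male-called counts were small. Each value is the female log2 ratio minus the male one. At 1 h the difference was 0.54 for Pdzk1, -0.57 for Slc22a8, 0.86 for Jun, 3.06 for Gadd45g and -0.89 for Gstp1. At 4 h it was 1.73 for Jun, 1.70 for Zfp36, 1.00 for Sgk1, 2.30 for Pdk4, 3.41 for Nfil3, -0.68 for G6pc, 4.03 for Id3 and -2.37 for Car3. At 12 h it was 0.48 for Errfi1, 2.83 for Etv5, -2.85 for Btg2, 1.78 for Tnfrsf12a, -0.94 for Hspa8, at most -1.38 for Hspa1a, which had 0 male UMIs at 0 h, -0.85 for Pck1 and -3.50 for Defb1. The clock genes Dbp and Arntl, also at 12 h, had -3.99 and 4.95.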

How the results depend on the processing

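No paired analysis was possible because each time had 1 library, which holds for the time comparisons. The test between the sexes had the library as a block, and without it 3242 genes passed in place of 3651. Leaving out each library in turn gave 2816 to 3103 genes, DESeq2 gave 2576 (1088 female-higher, 1488 male-higher, against 1838 and 1813), no filter on low counts gave 2257 and 1592, and requiring 2 sex-linked UMIs per cell gave 1951. With 2 sex-linked UMIs required, 31, 25, 32 and 60 male-called cells were left of 56, 55, 104 and 148. Female-called cells were 447, 510, 607 and 424, of 455, 518, 616 and 434. Many male calls therefore rested on 1 UMI. A mitochondrial limit of 25% left 467, 526 and 682 S2 cells at 0, 1 and 12 h. With 163, 338 and 240 genes changed at 1, 4 and 12 h, a minimum of 400 UMIs, which tests fewer genes, gave 54, 136 and 103, and a minimum of 20 gave 765, 1018 and 820. At the minimum of 400 the share of higher calls was 66.7% in place of 46.6% at 1 h and 49.5% in place of 59.6% at 12 h. Male-called cells alone gave 172 at 4 h and 145 at 12 h, over 4130 genes. Among values at least 2-fold in all S2 cells, those that changed sign did so in male-called cells, mostly on few UMIs, and the cause was not tested. They were, at 1 h, Dusp4 (-0.90), Tnfrsf12a (-0.30) and the immune list (5.58, over its genes with 100 or more UMIs in male-called cells), and at 4 h Slc22a13 (-2.77), Nfil3 (-1.40), Cdkn1a (-0.39), Hspa1a (0.23, a lower bound with 0 UMIs at 0 h), Hspa1b (0.64), Hbegf (-0.054), Id1 (-1.03), Id3 (-2.09) and the immune list (1.502, the same genes). At 12 h they were Slc22a7 (-0.15), Slc22a13 (-2.56), Btg2 (1.65), Tef (0.46), Per3 (1.55), Vim (-0.15, a lower bound), Ugt1a6a (1.02), Foxo3 (0.96) and Ypel2 (-0.56). Since the value of Vim is only a lower bound, its direction in male-called cells is not known.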
